A study of Mus musculus with 6 samples.

Results

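The methyl-CpG binding proteins are nuclear proteins that attach to DNA where cytosines followed by guanine carry a methyl group. Their genes on the array were Mbd1, Mbd2, Mbd3, Mbd4, Mbd5, Mbd6 and Zbtb33, and every probe that the array design gives one of these 7 gene names was taken, 13 of the 55681 probes. Of these genes, Zbtb33 (Kaiso) alone lay below both 2 mg arrays on each array at 20 mg folic acid (FA), as 4.59% of tested probes did. On 1 of these arrays, which was dim, its spot was not well above background. Mbd3 had a higher signal in males at 20 mg on both of its probes. Zbtb33 was the only gene of the 7 called by the 2.5-fold rule used here. It was called lower in males, as 2.97% of tested probes were. In females it was called lower, as 15.3% were, only with the dim array counted, where it was at the floor. None of the 7 genes passed limma in either sex, where Benjamini-Hochberg adjusted p was 1.00 for each.

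Transcripts in the cerebellum of mouse pups at postnatal day 1 were measured on 6 single-colour Agilent arrays. C57BL/6J dams had received an amino acid-based diet with FA at 2 mg/kg or at 20 mg/kg from 1 week before mating and through gestation. For each sex, the 2 mg FA group was a single array and the 20 mg FA group was 2 arrays, and each array held the RNA of 3 pooled pups, each pup from a different dam. The 2 pools of each sex at 20 mg came from different batches of extraction, and the labels do not give the batch of an array. Thus all 4 groups share strain, age and diet base and differ in sex and FA dose. The spread between pools is known at 20 mg alone, and extraction batch cannot be told apart from pool there. A tissue field of the labels reads whole brain while the titles read cerebellum.

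DNA methylation draws methyl groups from the folate cycle, and methyl-CpG binding proteins read the resulting marks. Mbd2 and Mbd3 are alternative subunits of the NuRD chromatin remodelling and histone deacetylase complex, and mammalian Mbd3 binds methylated CpG weakly. Mbd1 is a repressor that works with histone H3 lysine 9 methyltransferases. Mbd4 is a DNA glycosylase that removes the thymine left when 5-methylcytosine is deaminated. Mbd5 and Mbd6 carry the MBD fold, bind no methylated DNA of their own, and associate with the BAP1 deubiquitinase complex. Zbtb33 encodes Kaiso, a zinc finger protein on the X chromosome that binds methylated CpG pairs, or the unmethylated motif TCCTGCNA, and recruits the NCoR corepressor.

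The sequences behind both genes that the results turn on are shown first. RefSeq promoter windows (250 bases before to 50 after a start, GRCm38.p6) were found for 5 of the 7 genes, namely Mbd3, Mbd4, Mbd5, Mbd6 and Zbtb33. The 250 bases before the start are printed here for Zbtb33 and for Mbd3, with each CpG, the site these proteins read, in capitals.
Zbtb33 promoter, chrX:38189543-38189792, plus strand: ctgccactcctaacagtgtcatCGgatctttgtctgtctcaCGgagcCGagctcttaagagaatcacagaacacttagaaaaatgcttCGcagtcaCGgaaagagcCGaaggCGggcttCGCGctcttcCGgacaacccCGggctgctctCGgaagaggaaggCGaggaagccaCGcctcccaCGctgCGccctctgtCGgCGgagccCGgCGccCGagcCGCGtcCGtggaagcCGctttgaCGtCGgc
Mbd3 promoter, chr10:80399532-80399781, minus strand: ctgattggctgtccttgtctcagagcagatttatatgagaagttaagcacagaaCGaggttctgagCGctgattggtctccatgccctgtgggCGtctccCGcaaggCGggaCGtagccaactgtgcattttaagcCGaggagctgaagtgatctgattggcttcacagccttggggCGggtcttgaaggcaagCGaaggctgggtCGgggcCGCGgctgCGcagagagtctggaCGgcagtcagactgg
The printed stretch held 27 CpG for Zbtb33 and 14 for Mbd3. Over the whole window of 300 bases Zbtb33 had 34 CpG, a number reached by 7.73% of the 32851 RefSeq windows, and Mbd3 had 22, reached by 23.1%. The median window had 7. The Kaiso motif TCCTGCNA, searched on both strands, was in the Mbd3 window once and in none of the other windows of these genes, against 4.96% of all windows. The tandem CGCG, which reads the same on both strands and does not overlap TCCTGCNA, was in 38.0% of all windows and was present 2 times in that of Zbtb33 and 2 times in that of Mbd3. These are matches of letters and say nothing about binding in these samples.

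Each gene was measured by 60-base probes, and the genes with more than 1 probe allow a check of a difference on another stretch of the same transcript. Mbd1, Mbd2 and Mbd3 had 2 probes each, Mbd5 had 4, and Mbd4, Mbd6 and Zbtb33 had 1. Probes are numbered here from the brightest, which stands for the gene. The second Mbd3 probe and the Mbd4 probe are shown because the first repeats the Mbd3 result and the second had the widest gap between the male pools among the brightest probes, and CpG is again in capitals.
Mbd3 probe, mm9 chr10:79856639-79856698, minus strand: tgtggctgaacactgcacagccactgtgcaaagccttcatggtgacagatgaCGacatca
Mbd4 probe, mm9 chr6:115792515-115792574, minus strand: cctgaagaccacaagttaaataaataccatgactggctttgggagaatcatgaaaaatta
Each of these probes had 1 forward reading frame free of stop codons. Probe positions follow the array design in mm9 and are not on the same build as the promoters.

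The authors' image software wrote a processed signal for each spot, an intensity with its background subtracted, and these signals were quantile normalized over the arrays, so a level below is a log2 signal with a floor at 10 (log2 3.32). The array labelled female 20 mg replicate 2 was dim. Its median processed signal was 5.17 against 41.8 to 178 on the other 5 arrays, and 23.3% of its probes were well above background against 51.1% to 71.9%. No probe well above background lay under 8.82 (log2) on this array, against 3.36 to 5.01 on the others. A value under 8.82 there is therefore not a readable level. Nor is 8.82 a ceiling for probes not well above background, since the gene Setdb1 was at 9.22 there without being so. On this array Eif2s3y, a Y-linked gene, was well above background at 10.12, against 10.62 to 11.99 on the male arrays and 4.04 on female 20 mg replicate 1, where it was also well above background. Xist, the X-inactivation RNA, was not well above background there, while it was on both other female arrays. The Y-linked genes Ddx3y, Uty and Kdm5d were also not well above background on this array, at 7.71, 6.34 and 3.32. On the male arrays Ddx3y was well above background at 9.41 to 10.46, which is over 8.82. Uty and Kdm5d lay under 8.82 on every male array, so such levels would not be readable on the dim array. Eif2s3y and Ddx3y thus differed in detection on this array, and the sex given for it is in doubt. All 12 cerebellum markers (such as En1, En2 and Zic1) were well above background on the 4 arrays of highest median signal and 11 were on male 20 mg replicate 2. The dim array had 7. Forebrain markers were present too, with 9 of 9 well above background on the female 2 mg array. The female values below include this array unless stated, and the female dose difference of each gene is also given without it.

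At 2 mg the sexes had close levels of all 7 genes: the female array differed from the male array by 0.05 to 0.24 (log2) in size, where the median over all 37257 probes tested was 0.22. All 7 genes were well above background on the 5 brighter arrays and 5 (Mbd1, Mbd2, Mbd3, Mbd5, Mbd6) on all 6. At 20 mg, 2 genes were higher and 5 lower in males than at 2 mg, with a median difference of -0.25 against -0.04 over all tested probes. In females 4 were higher and 3 lower, with a median of 0.08 against -0.21, and without the dim array 2 were higher and 5 lower, with a median of -0.21 against 0.03. The 2 male pools at 20 mg differed from each other by a median of 0.66 for these genes, against 1.03 over all tested probes.

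**Figure D1:**
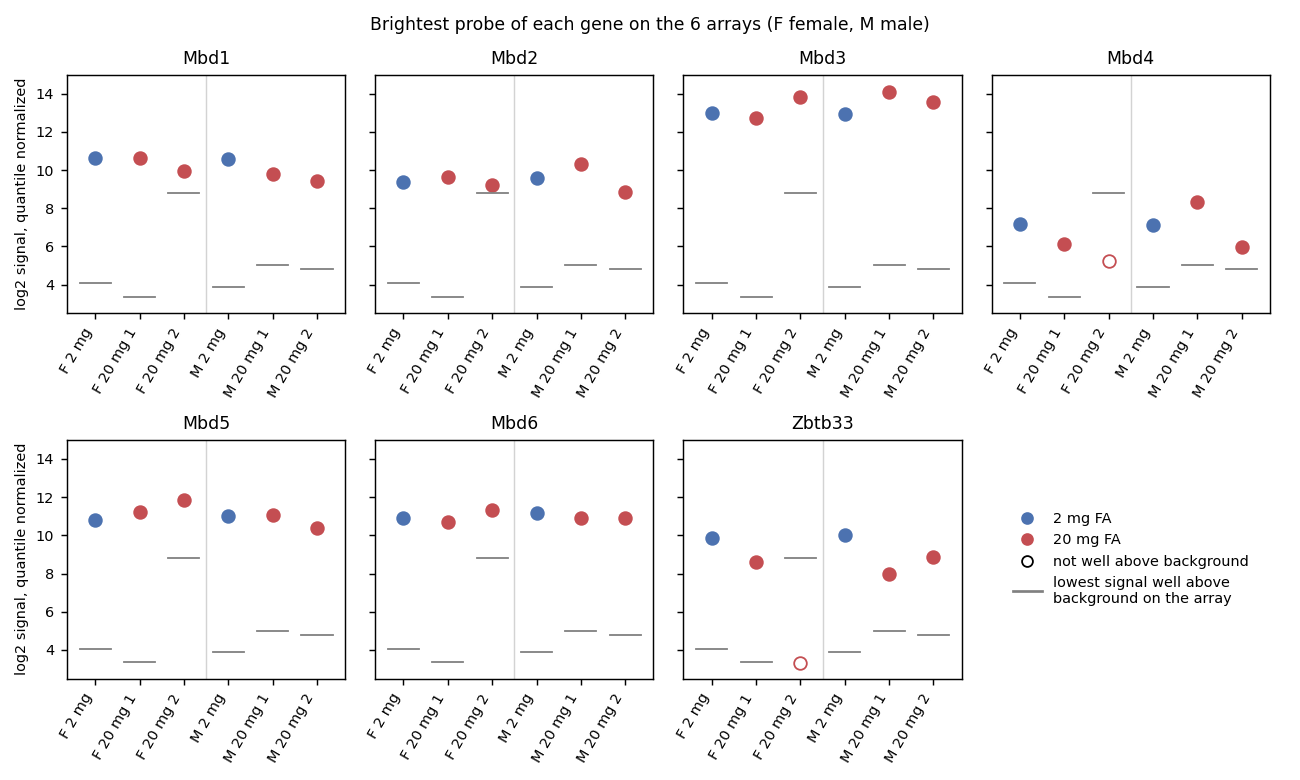
Level of the brightest probe of each gene on the 6 arrays, as quantile-normalized log2 signal on the vertical axis, with 1 point per array, blue at 2 mg FA and red at 20 mg FA; open points are not well above background and the grey bar is the lowest signal well above background on that array. Zbtb33 is the gene whose 4 red points lie below both blue points, and its open point at 3.32 lies below the bar at 8.82.

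Zbtb33 was read by 1 probe (mm9 chrX:35549874-35549933). Its level was 9.84 on the female 2 mg array and 10.01 on the male 2 mg array. At 20 mg it was 7.97 and 8.86 on the male arrays and 8.63 on female replicate 1, and the dim array was at the floor of 3.32. The 3 brighter arrays at 20 mg were all below the arrays at 2 mg, with no overlap. On the dim array the Zbtb33 spot was not well above background, so its level there is not known. With 8.82, the lowest level well above background there, in place of the floor, the difference from the female 2 mg array would be 2.03-fold. The dose groups do not overlap with that value either, but 8.82 is not a strict bound.

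In males the dose difference of Zbtb33 was -1.59 (log2, 3.02-fold lower), with differences of -2.04 and -1.15 on the 2 arrays, and the gap between the male pools was 0.89. By the 2.5-fold rule, which takes the mean of the 20 mg arrays and keeps only probes that vary over the arrays more than the median probe, it was the 1 gene of 7 called lower in males, where 2.97% of tested probes were. No gene of the 7 was called higher, where 1.71% of probes were. In females Zbtb33 was again the 1 gene of 7 called lower, where 15.3% of probes were, and none was called higher, where 5.43% of probes were. Mbd4 was past 2.5-fold in females (-1.49) but was not kept by the filter on variation. The third Mbd5 probe, which does not stand for its gene, was called higher in females (2.89-fold) and was not well above background on the female 2 mg array or the dim array. Zbtb33 was the 1 gene of 7 called lower in both sexes, where 1.48% of probes were.

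The male call depends on 1 array and on the processing. Without male 20 mg replicate 1 the difference was -1.14, and it was -1.29 with normexp background correction and -1.27 without background correction, all short of 2.5-fold. With a shift to a common 75th percentile in place of quantile normalization it was -1.63, and the probe was then not kept by the filter on variation in either sex.

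The female value of Zbtb33 depends on the dim array. With that array at its floor the difference was -3.86 (log2), and without the array it was -1.20. With the array set to 8.82, its lowest level well above background, it was -1.11. Both of the latter are short of 2.5-fold. The male difference was -1.59 without the dim array, and 5.24% of tested probes were then called lower in males, with 3.13% lower and 2.26% higher in females. Within slide 1, which held both 2 mg arrays and female 20 mg replicate 1, the female difference was -1.21, and 3.71% of tested probes were lower by more. The male arrays at 20 mg were on other slides than the male 2 mg array, so slide and dose cannot be told apart in males. Among the arrays of the later scan day, the female difference was again -1.21 and the male difference, from replicate 2, was -1.15, so neither passed 2.5-fold within a scan day.

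On the brightest probes, all 4 arrays at 20 mg lay below both 2 mg arrays for Zbtb33 alone of the 7 genes, where 4.59% of tested probes did so. No gene of the 7 lay above on all, where 3.75% did. The second Mbd3 probe, which does not stand for its gene, lay above on all 4, but was not well above background on the dim array. Without the dim array Zbtb33 and Mbd6 lay below both 2 mg arrays, where 7.03% of probes did. On the 3 brighter arrays at 20 mg Zbtb33 was at least 1.15 (log2, 2.22-fold) below the 2 mg array of its sex. On these 3 arrays 50 of the tested probes (0.134%) were as low. The cut of 1.15 is the smallest decrease of Zbtb33 itself on these arrays. This share thus describes where the gene lies among the probes and is not a test.

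In limma, Zbtb33 had a difference of -1.59 with a standard error of 2.07 in males and of -3.86 with the same error in females, and over both sexes of -2.73 with an error of 1.47 and a 95% interval of -5.78 to 0.32. The adjusted p was 1.00 in each. Over all probes limma called 0 (0% of those tested) for the dose in each sex, for the sexes together and for the interaction of dose and sex, and at an unadjusted p under 0.05 it gave 74 probes (0.199%), 161 (0.432%), 144 (0.387%) and 51 (0.137%), none of them a probe standing for one of the 7 genes. Without the dim array the difference over both sexes was -1.40 with an error of 0.86 and an interval of -3.46 to 0.66. The dose difference of Zbtb33 in females minus that in males was -2.27 with an error of 2.93, and without the dim array it was 0.39 with an error of 1.72, so its direction rests on that array. The limma adjusted p was 1.00 in both.

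Some choroid plexus markers also differed between the doses. By the 2.5-fold rule 2 of the 6 markers (Ttr and Aqp1) were called higher in females, where 5.43% of tested probes were, and 4 (with Folr1 and Clic6) without the dim array, where 2.26% were. Limma called 0 of the 6, with 1 at an unadjusted p under 0.05 over both sexes. Kl had a female difference of -0.73 and Otx2 of 0.27. The mean level of the 6 markers was 8.35 (log2) on the female 2 mg array and 10.75 and 9.81 on the 20 mg arrays, and 9.67, 9.96 and 9.56 on the male arrays in the same order. Ttr, the thyroid hormone carrier made by choroid plexus, was at 11.21 on the female 2 mg array and 16.16 and 14.59 at 20 mg, and at 14.26 on the male 2 mg array and 15.31 and 15.30 at 20 mg. The median difference of the 6 was 2.53 in females, 2.57 without the dim array, and 0.21 in males. The part of this tissue in the values of the 7 genes was not tested, and in such pools fewer cells of a type and less RNA per cell cannot be told apart.

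**Figure D2:**
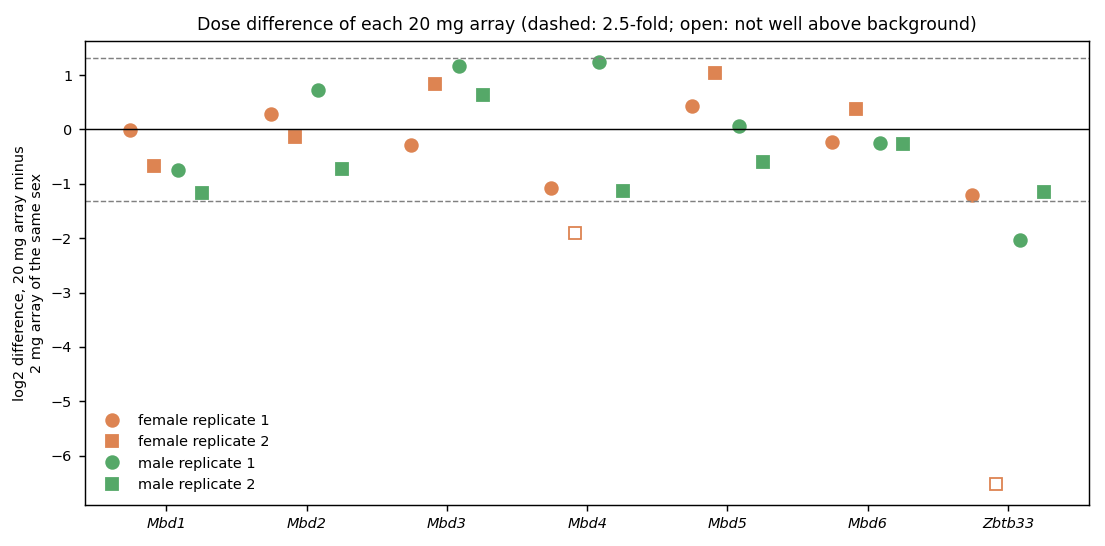
Log2 difference of each 20 mg array from the 2 mg array of its sex on the vertical axis, for the brightest probe of each gene, with circles for replicate 1, squares for replicate 2, orange for females and green for males; dashed lines mark 2.5-fold and open points are not well above background. Zbtb33 is below 0 on all 4 arrays (-1.21, -6.52 with the level at the floor, -2.04 and -1.15), and in males both Mbd3 points (1.17 and 0.63) are above 0.

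**Figure D3:**
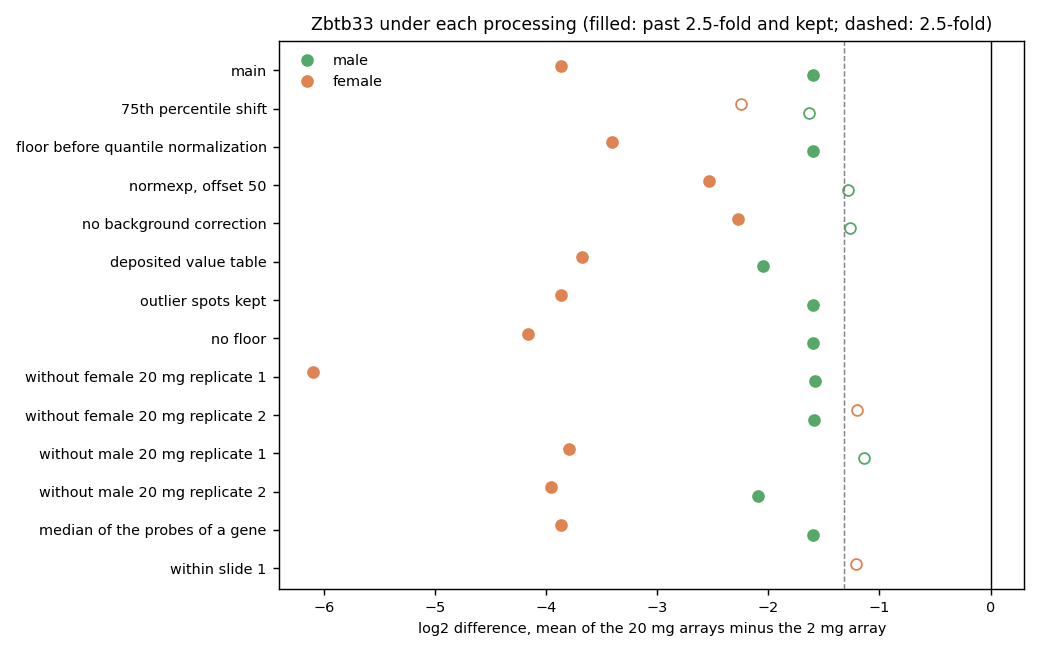
Log2 difference of Zbtb33, mean of the 20 mg arrays minus the 2 mg array, on the horizontal axis, under each way of processing listed on the vertical axis, green for males and orange for females; filled points are called by the 2.5-fold rule and the dashed line is 2.5-fold. All points lie below 0, from -2.09 to -1.14 in males and from -6.10 to -1.20 in females.

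Mbd3 and Mbd2 are the alternative NuRD subunits. The brightest Mbd3 probe (mm9 chr10:79855402-79855461) was at 12.94 on the male 2 mg array and at 14.11 and 13.57 at 20 mg. It was at 12.99 on the female 2 mg array and at 12.70 and 13.84 at 20 mg. Both male arrays at 20 mg were higher, while the female arrays lay on either side of their 2 mg array.

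The Mbd3 difference in males was 0.90 (1.87-fold), larger than the gap of 0.54 between the male pools, but it did not reach 2.5-fold, and its limma error was 0.95 with adjusted p of 1.00. In females the difference was 0.28, and -0.28 without the dim array. The second Mbd3 probe, printed above, was at 8.19 on the male 2 mg array and at 8.90 and 9.37 at 20 mg, a difference of 0.95 (1.93-fold) with a pool gap of 0.48. In females this probe was at 7.62 at 2 mg and at 8.48 and 9.04 at 20 mg. The dim array was not well above background for it, so the female difference rests on replicate 1, at 0.86.

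The differences of the brightest Mbd2 probe were within the gap between pools. This probe, on chromosome 18, was at 9.59 on the male 2 mg array and at 10.31 and 8.85 at 20 mg, and at 9.36 in females at 2 mg and 9.65 and 9.23 at 20 mg. The pools lay on both sides of the 2 mg array in each sex, with mean differences of -0.01 in males and 0.08 in females, or 0.28 in females without the dim array. The second Mbd2 probe was higher in males on both arrays, by 0.84 and 0.29 (mean 0.56, against a pool gap of 0.55), and in females by 0.28 on replicate 1, with the dim array not well above background.

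Mbd1, the histone methyltransferase-linked repressor, also lies on chromosome 18. Its brightest probe was at 10.56 on the male 2 mg array and at 9.81 and 9.40 at 20 mg, a difference of -0.96 (1.94-fold lower), larger than the pool gap of 0.41. In females it was at 10.61 at 2 mg, and at 10.60 and 9.94 at 20 mg, with a difference of -0.34, or -0.01 without the dim array. The lower male level was not seen on the second Mbd1 probe, which was higher by 1.17 and 1.09 on the male arrays at 20 mg (from 5.43 to 6.60 and 6.51). The probes of Mbd1 thus differed in direction in males. Neither difference passed 2.5-fold.

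Mbd4, the thymine glycosylase, had the widest gap between male pools among the brightest probes. It was at 7.10 on the male 2 mg array and at 8.34 and 5.96 at 20 mg, a pool gap of 2.38 around a mean difference of 0.05. In females it was at 7.17 at 2 mg and 6.10 on replicate 1, and the dim array was not well above background, so its value of 5.26 there is unreadable. The female difference was -1.49 with the dim array and -1.18 without it, and Mbd4 was not called by the 2.5-fold rule in either case.

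**Figure D4:**
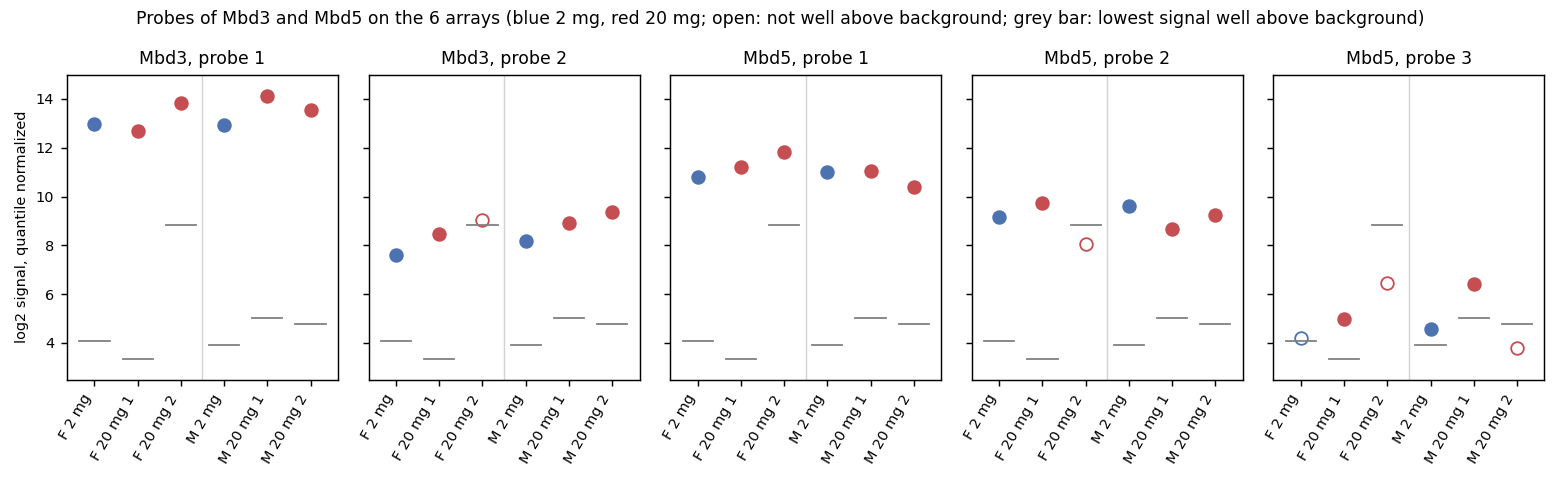
Level of each probe of Mbd3 and of the 3 Mbd5 probes tested, as quantile-normalized log2 signal on the vertical axis, on the 6 arrays, blue at 2 mg and red at 20 mg; open points are not well above background and grey bars are the lowest signal well above background. Both Mbd3 probes are higher at 20 mg on both male arrays, and the Mbd5 probes differ in direction from each other.

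Mbd5 and Mbd6, the BAP1-associated pair, had small differences. Mbd5 was at 11.00 on the male 2 mg array and at 11.07 and 10.41 at 20 mg. In females it was at 10.78 at 2 mg and at 11.22 and 11.83 at 20 mg, a difference of 0.74 (1.67-fold) that exceeded the pool gap of 0.61, and 0.41 without the dim array. The second Mbd5 probe was lower in males on both arrays, by 0.91 and 0.36, and in females higher by 0.56 on replicate 1. The third was well above background on 3 arrays and the fourth on none, so the third was readable on those 3 only and the fourth was not tested.

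Mbd6 had the closest male pools of the 7 genes. It was at 11.17 on the male 2 mg array and at 10.92 and 10.91 at 20 mg, a difference of -0.25 against a pool gap of 0.02. In females it was at 10.93 at 2 mg and at 10.70 and 11.30 at 20 mg. Its female arrays lay on both sides of the 2 mg array, with a difference of 0.08, or -0.21 without the dim array, and its male difference had a limma error of 1.11.

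Across the group, the male dose difference was larger than the pool gap in 4 of 7 genes (Mbd1, Mbd3, Mbd6, Zbtb33), where 24.9% of tested probes had such a difference. The difference had the same direction on both male arrays for 4 of 7, where 43.9% of probes did. In females these counts were taken over the 5 genes well above background on all 6 arrays. Of these, 1 (Mbd5) had a difference larger than the pool gap, where 20.7% of probes well above background on all 6 arrays did, and 2 of 5 (Mbd1 and Mbd5) had the same direction on both arrays, where 49% did.

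The 46 genes of known partners were all on the array and all tested. They comprised 13 of the NuRD complex, 9 of the BAP1 complex, 7 around Kaiso and NCoR, 5 that work with Mbd1, 8 of mismatch and base excision repair and 4 other methyl-CpG readers. By the 2.5-fold rule 1 was lower and 0 higher in males, against 2.97% and 1.71% of tested probes, and 4 were lower and 0 higher in females, against 15.3% and 5.43%. Limma called 0 of the 46, with 0 at an unadjusted p under 0.05 over both sexes. Their median difference was 0.02 in males and -0.08 in females, against -0.04 and -0.21 over all tested probes.

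The partners called were few, and they are named here after their values were seen. The gene lower in males was Tdg, the thymine DNA glycosylase that shares a substrate with Mbd4, which was at 9.23 at 2 mg and at 7.55 and 8.22 at 20 mg. In females the 4 lower were Ncor1, Suv39h1, Smug1 and Polb, and 0 partners were called lower without the dim array, where 3.13% of tested probes were. Without that array 2 of 46 were called higher in females, Hdac2 and Zbtb38, by 1.66 and 1.41 (log2), where 2.26% of probes were. On all 4 arrays at 20 mg, 1 of 46 (Rbbp4, a NuRD histone chaperone) lay below both 2 mg arrays, where 4.59% of probes did, and 2 (Bap1, the deubiquitinase, and Ung, the uracil glycosylase) lay above, where 3.75% did. These counts are near the shares over all probes.

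The genes whose levels followed a member most closely over the 6 arrays were found by Pearson correlation among 9903 probes, those of the 12430 well above background on all 6 arrays that carry a gene symbol rather than an accession or a clone name. For Zbtb33 they were Pcyt1a (r = 0.999) and Ttyh1 (r = 0.994), and over the 5 brighter arrays these were 0.992 and 0.948. For Mbd3 they were Tubg1 (r = 0.996) and Fdx1l (r = 0.992). For Mbd2 they were Phf21a and Vps33b, for Mbd4 Hnrnpc and Col3a1, for Mbd5 Snx25 and Nip7, for Mbd1 1110012L19Rik and Negr1, and for Mbd6 Tcf7l2 and Chd7, with r from 0.956 to 0.999. These are descriptions over 6 points that share a normalization and the dim array.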

How the data were processed

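The deposited intensities came from Agilent Feature Extraction 10.7.3.1, run by the authors, which subtracts background and flags spots as well above background. The log2 values in the authors' deposited table, quantile normalized with a floor, served as an alternative. Here, spots flagged as outliers were left out, log2 was taken of each probe's processed signal, the 6 arrays were quantile normalized together, and a floor was set at 10. Probes well above background on at least 2 arrays were tested. The 2.5-fold rule keeps probes whose variance over the arrays exceeds the median variance (chi-square p at or under 0.05). Limma 3.58.1 (R 4.3.3) was fitted on all tested probes with 4 groups of sex and dose, with 2 residual degrees of freedom, Benjamini-Hochberg adjustment over all tested probes and a threshold of 0.05. It assumes that each lone 2 mg array varies as the 20 mg arrays do. The p-values rest on the gaps between the 20 mg arrays of each sex and on the spread over all probes. Those arrays differ in slide, scan day and extraction batch as well as in pool. The p-values thus do not measure the spread between pools of pups alone, and few arrays limit their precision. The scripts were tested on simulated data with 200 of 37211 probes changed by 4 (log2). With a noise SD of 0.2, limma and the 2.5-fold rule found all 200. With noise taken from the gaps between the 20 mg arrays, pooled over the sexes, limma found 0 in each sex. The 2.5-fold rule then found 188 in males and 184 in females, but also called 7055 and 7148 unchanged probes. This noise carries the gap of the dim array into the simulated males too, and the spread of the male arrays alone was not simulated. In the data the rule called 1106 tested probes lower and 636 higher in males. At the pooled spread a lack of limma calls does not show a lack of change, and a 2.5-fold call does not show a change. The genes named are all 7 members, the 2 nearest patterns per member, and partner genes past 2.5-fold on both arrays of a sex. No partner met this, and those named were chosen after their values were seen, because their counts were small. The members and lists were chosen with earlier results of these data known. Alternatives were other normalizations, background corrections and filters, blocks for slide, scan day and replicate number, and leaving out each 20 mg array.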

Additional observations from a re-analysis of the deposited data

How the results depend on the processing

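Of 175 recomputed dose differences of the 7 genes, 159 kept their direction, 9 moved by more than the SD between the pools of 20 mg and no called difference turned direction. Zbtb33 was lower under every alternative run. It was called lower in males under 8 of 12, and 0 genes were called there with the 75th percentile shift, with normexp and without background correction, and in females 0 with the 75th percentile shift and within slide 1. In females 2 genes (Mbd4 and Zbtb33) were called lower with the floor set before normalization and with the deposited table. In the main values 15.3% of tested probes were called lower in females, and the share under these settings is not given. Leaving out 1 array at a time gave 0 to 1 genes called in males (0 without male 20 mg replicate 1) and 0 to 2 in females (0 without female 20 mg replicate 2, 2 without female replicate 1 or male replicate 2), and 2 to 3 genes with no overlap of the doses (3 without female replicate 1). With the median of a gene's probes 2 had no overlap (Zbtb33 lower and Mbd3 higher). Within slide 1, with 3 arrays, 6 had no overlap, where 1 array at 20 mg has only to lie outside the 2 arrays at 2 mg. Apart from the run without female 20 mg replicate 2, the share over all tested probes is not given for these alternatives. The counts called or without overlap are thus not read as results about these genes.

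Limma called 0 probes over the whole array, and 0 of the 7 genes under every setting run. In males it gave 1 probe from the deposited table, in females 3 with the 75th percentile shift, 3 with normexp and 1 without background correction, and over both sexes 1 with slide as a block. Leaving out 1 array gave 0 to 1 in males, 0 to 104 in females (104 without female 20 mg replicate 1), 0 to 14 over both sexes (14 without female replicate 1, 12 without male replicate 2) and 0 to 2 for the interaction (2 without male replicate 1). A fit with a replicate block uses the number of the 20 mg arrays, and the 2 mg arrays carry none, so the numbers pair no 2 mg array. This block gave 1 probe in males, 10 in females and 13 for the sexes together. The causes were not tested. Signal over background limits every value on the array labelled female 20 mg replicate 2.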
